A study of Mus musculus with 18 samples.

Results

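Circular RNAs built from annotated exons and longer than 500 bases after splicing were examined in mouse testis with a wild-type or a knock-in Taf7l gene. Members were all circles that the authors' table annotates as made of exons and whose spliced length exceeds 500 bases. They numbered 4314 of 7391 circles, or 58.4%, and 74.3% of the 5805 circles annotated as exonic. They came from 2015 host genes, all of which had a symbol. Taf7l, on the X chromosome, is the germ-cell paralog of Taf7, a component of TFIID, which helps RNA polymerase II start transcription. Total RNA had been taken from frozen whole testes of adult C57BL/6 mice and sequenced with a stranded kit, in 3 wild-type libraries and 3 libraries of the Taf7l knock-in, with no other treatment named. The labels do not say what the knock-in allele alters, nor whether the libraries of a genotype stem from different mice. The p-values therefore measure only the spread between these libraries, which may be technical. A further 12 samples, from isolated spermatocytes and spermatids, were not analysed here.

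A circular RNA forms when the splicing machinery joins the donor at the end of an exon back to the acceptor at the start of the same or an earlier exon. Without free ends, such circles resist the exonucleases that degrade linear RNA, so they can persist in cells after their linear partners have gone. The testis, like the brain, is known for the large number of circles it makes, and some of them outlast the arrest of transcription in late spermatids.

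Each library held between 14381 and 20127 circle counts and between 17431309 and 21446420 mRNA counts. Between 2136 and 2511 of the 4314 circles were detected per library, with the fewest in the wild-type library that held the fewest circle counts and the most in the knock-in library that held the most. Libraries of the same genotype differed by more than sampling noise, with a chi-square per degree of freedom of 1.66 to 1.89 over circles, so none was counted as a repeat of another. Taf7l mRNA was counted 507, 551 and 531 times in wild-type testis and 472, 525 and 581 times in knock-in testis, and was not called changed (log2 fold change -0.11 ± 0.08, adjusted p = 0.632). Marker genes of spermatogonia, spermatocytes, spermatids, Sertoli, Leydig and peritubular cells were all detected in the mRNA table, and of 43 markers tested 1 was called, the protamine gene Prm2, beside 0.982% of all mRNA genes. Prm2 had a log2 fold change of 0.53 ± 0.09 (adjusted p = 0.0289). Its call was lost in 4 of 6 fits that left out a library and kept with DESeq2. Of the same list, Tnp1 had 0.53 ± 0.12, Tnp2 0.39 ± 0.12, Odf1 -0.03 ± 0.06 and Prm1 -0.31 ± 0.12 (adjusted p = 0.303), none called. With edgeR, 4 of 5 elongating spermatid markers and all 4 peritubular markers (0.17 to 0.46) had an unadjusted p under 0.05. That share was 12.9% over all mRNA genes. Spermatogonia and pachytene spermatocytes each had 3 of 5 markers with such a p, and Leydig cells 2 of 5. Round spermatids had 1 of 5 and the epididymis 1 of 2. It was 0 of 5 for Sertoli, 0 of 4 for macrophage and 0 of 3 for erythrocyte markers. Whether the makeup of cells in the tissue plays a part in the values below was not tested, and in whole testis fewer cells of a type and less RNA per cell cannot be told apart.

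The ends of a circle carry its splice sites, and RefSeq promoter windows of the same mouse build (mm10, GRCm38) covered 36 distinct upstream edges of 52 members and 9 distinct downstream edges of 11 members. All 36 upstream edges followed the letters AG of a splice acceptor, which stand before 7.69% of all positions in the 32817 windows. All 9 downstream edges were followed by the letters GT of a splice donor, against 4.96% of positions. Of the 18 bases before the acceptor AG, a median of 14 were pyrimidines, where 8 is the median over positions that follow an AG in the windows. Members were chosen as circles annotated as made of exons, so these contrasts with all window positions were largely fixed by that choice. They are given as a description only. Whether the authors' circle caller required these letters is not given in the sources used here. The 6 of these upstream edges with the most counts, summed over the members that share the edge, are shown to display the acceptor tract. Each sequence gives 20 bases of intron and the first 10 bases of the circle, 5′ to 3′ on the strand of the gene, with the acceptor AG in capitals.
Usp15, chr10:123181791-123181820, minus strand: cagcgtcttgtcttttttAGgtatctagta
Ica1, chr6:8758449-8758478, minus strand: taactgttcctttatttcAGgtttaatata
Kif27, chr13:58354938-58354967, minus strand: tcttttattttgatatgcAGgagtccagag
Nek10, chr14:14820758-14820787, plus strand: gtttctgtttacttcacaAGgaatgcaatg
Rreb1, chr13:37888851-37888880, plus strand: atcttcttttaatttttcAGgttgttgcaa
Mlc1, chr15:88978633-88978662, minus strand: atctcctcattaaaattcAGgaagctgtgt

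The downstream side is shown by Rbks, which encodes ribokinase, and by Cdc42bpa, which encodes a kinase that binds Cdc42. Here the last 10 bases of the circle stand first and the donor GT is in capitals.
Rbks, chr5:31647701-31647730, minus strand: agacaccacgGTaggtttcaaactttcaca
Cdc42bpa, chr1:180040191-180040220, plus strand: atgttcacagGTgagttagccagtctgtca

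The Cdc42bpa circle of 919 bases, on chromosome 1 from 179961044 to 180040200, was the member with both edges inside such windows, so its back-splice junction could be assembled. The last 10 bases of the circle are in lower case and the first 10, to which they are joined, in capitals.
Cdc42bpa junction: atgttcacagGTTCAGATAG
This circle was counted 0, 0 and 1 times in wild-type testis and 2, 0 and 3 times in knock-in testis. At each printed acceptor, the most counted circle was more abundant. The Usp15 circle of 826 bases, from a ubiquitin-specific protease gene, was counted 23, 11 and 19 times in wild-type testis and 16, 12 and 14 times in knock-in testis. The Ica1 circle of 652 bases was counted 14, 9 and 24 times against 10, 13 and 11. For both, the libraries of the genotypes overlapped. The Usp15 acceptor was used by 4 members with 131 counts in all, and the Kif27 acceptor, in a kinesin gene, by 3 members with 58 counts.

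The circles were mostly of moderate length. Their median spliced length was 1002.5 bases, with quartiles at 703.25 and 1617 bases and a maximum of 10731. Circles of 501 to 750 bases made up 30.0% of the members and 30.1% of the counts, and the 141 circles over 4000 bases made up 3.27% and 3.44%. Mean counts per circle lay between 12.3 and 15.7 in every length range, so counts per circle showed no steady trend with length. The genome span from edge to edge had a median of 18010 bases, of which the exons kept in the circle made up a median of 6.43%. Exonic circles up to 500 bases had a median span of 5247 bases.

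**Figure D1:**
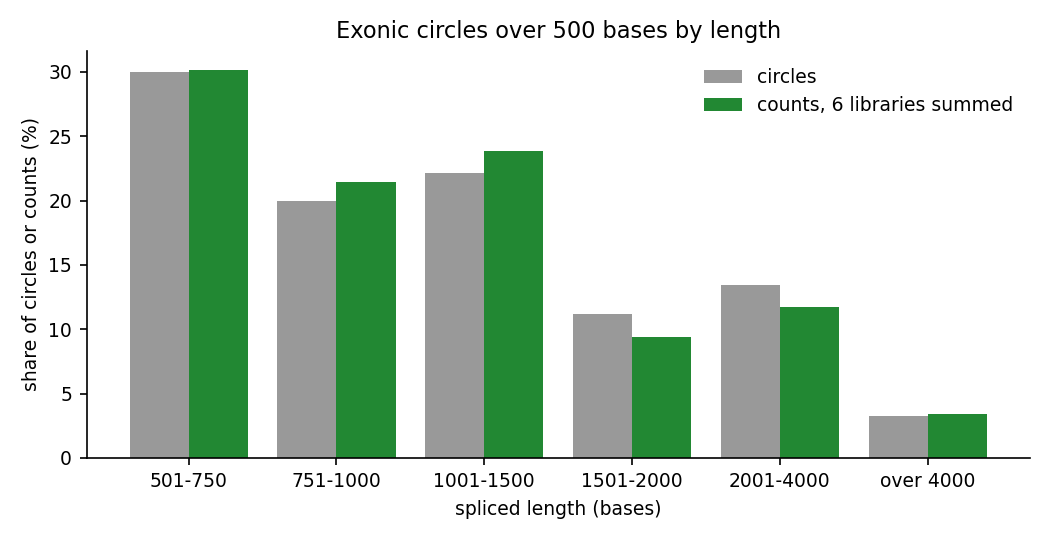
Share of the 4314 circles (grey bars) and of their counts summed over 6 libraries (green bars) in each range of spliced length, in percent. The ranges are of unequal width. Each pair of bars is of nearly equal height, from 30.0% and 30.1% in the shortest range to 3.27% and 3.44% over 4000 bases.

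Most members were rare. They held 62979 counts in all, a median of 6 per circle over the 6 libraries, and no member had fewer than 2. There were 747 members with exactly 2 counts, 1104 were seen in a single library, and 684, or 15.9%, were seen in all 6. Among exonic circles up to 500 bases, 17.3% were seen in all 6. The 10 most counted members held 13.5% of the counts of all 4314 and the top 100 held 35.9%.

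Among hosts with a role in chromatin and transcription, Ep400 gave the most counted circle. Ep400 encodes an ATPase of the TIP60 chromatin-remodelling complex, and its circle of 1481 bases lay on chromosome 5 from 110753804 to 110756766, on the minus strand. It was counted 382, 241 and 241 times in wild-type testis and 296, 295 and 318 times in knock-in testis. The first wild-type library was the highest of the 6 and the other two the lowest, so the knock-in libraries lay inside the wild-type range. As CPM, TMM-scaled counts relative to all circle counts of the library, its level was 18368 ± 3015 in wild-type testis and 17526 ± 1569 in knock-in testis (SD, n = 3 each). This circle alone held 97.5% of the counts of the 7 Ep400 members. Sp1, a zinc-finger transcription factor gene, gave a circle of 2294 bases on chromosome 15 from 102407772 to 102430987, counted 140, 158 and 138 times against 120, 126 and 143. Scaled levels of the Sp1 circle did not overlap between genotypes, at 9469 ± 1356 and 7468 ± 341 CPM, and the difference did not pass the test (log2 fold change -0.34 ± 0.16, adjusted p = 0.979). Linear Sp1 mRNA had a similar log2 fold change of -0.31 ± 0.08, which was not called either (adjusted p = 0.141). Crebrf, whose product regulates the CREB3 transcription factor, had 10 members and no single leading circle. Its circles of 1216 and 1411 bases held 43.9% and 41.8% of the host's counts.

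Several of the leading hosts belong to cilia and the sperm tail. Bbs9 encodes a subunit of the BBSome, the complex that carries membrane proteins in and out of cilia. Its circle of 803 bases, on the plus strand of chromosome 9 from 22643745 to 22679064, was counted 166, 117 and 107 times in wild-type testis and 188, 188 and 250 times in knock-in testis. All 3 knock-in libraries were above all 3 wild-type libraries. Dnah7a, an axonemal dynein heavy chain gene, gave a circle of 1058 bases that was counted 185, 103 and 144 times against 118, 121 and 137. The knock-in libraries lay inside the wild-type range. Dnah7a has close paralogs, so its counts are uncertain where their reads agree. Tsga10, which encodes a protein of the sperm tail, gave a circle of 793 bases counted 103, 71 and 63 times against 86, 115 and 133, and the genotypes overlapped. Dnah8, a dynein heavy chain gene of the sperm tail, had more members than any other host, with 35 circles of 549 to 3759 bases. They shared 19 upstream and 28 downstream edges, and 12 of them started at the same acceptor.

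The remaining leaders had roles in RNA binding, ubiquitin and metabolism. Strbp encodes a double-stranded RNA-binding protein of the spermatid's perinuclear region. Its circle of 6168 bases, on the minus strand of chromosome 2 from 37580673 to 37647285, was the second longest member with at least 20 counts, yet it was counted 150, 125 and 147 times in wild-type testis and 107, 136 and 139 times in knock-in testis. Raw counts overlapped, while scaled levels were lower in every knock-in library, with a log2 fold change of -0.31 ± 0.16 that did not pass the test (adjusted p = 0.979). Usp32, a ubiquitin-specific protease gene, gave a circle of 584 bases counted 154, 157 and 119 times against 132, 151 and 165. Ankib1, a RING-type ubiquitin ligase gene, gave a circle of 873 bases counted 81, 64 and 77 times against 78, 64 and 115. Scaper, whose product binds cyclin A at the endoplasmic reticulum, gave a circle of 642 bases counted 147, 113 and 102 times against 105, 118 and 170. In these 3 circles the libraries of the genotypes overlapped.

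**Figure D2:**
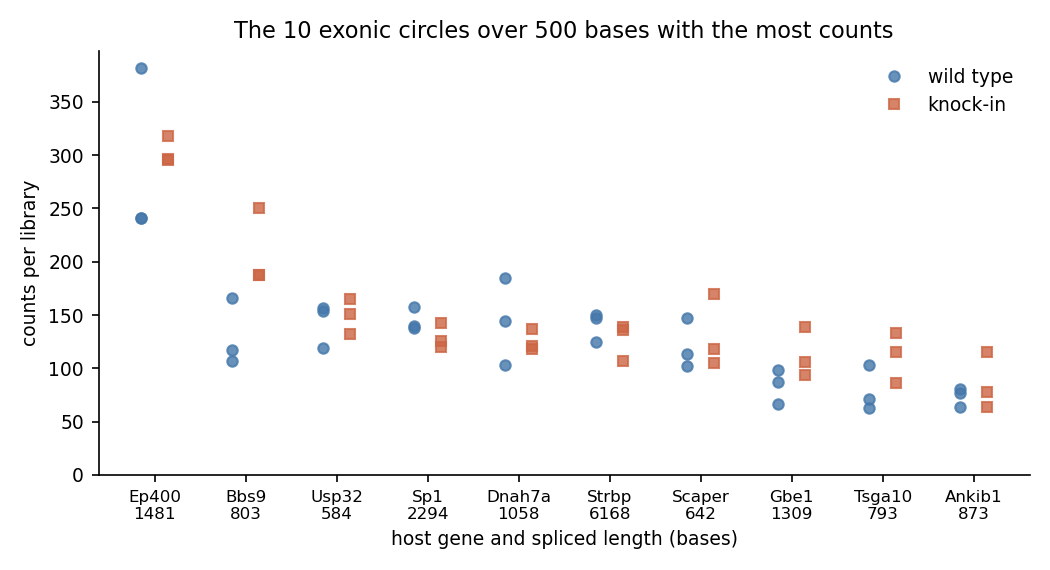
Counts per library (y axis, linear from 0) of the 10 exonic circles over 500 bases with the most counts, named by host gene and spliced length in bases. Blue circles are the 3 wild-type libraries and orange squares the 3 knock-in libraries. Bbs9 is the circle whose raw counts separate the genotypes, with 166, 117 and 107 against 188, 188 and 250.

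Beside Strbp, 4 genes gave the longest members with at least 20 counts. Nsd1, a histone H3 methyltransferase gene, gave 1 of 6943 bases counted 5, 7 and 5 times in wild-type testis and 6, 8 and 6 times in knock-in testis. Rbm33, an RNA-binding protein gene, gave 1 of 6052 bases and Dpp8, a dipeptidyl peptidase gene, 1 of 5922 bases, with 36 and 26 counts in all. Tcf20, a transcription coregulator gene, gave 1 of 5866 bases counted 34, 27 and 33 times against 33, 39 and 31. In each of these 4 the libraries of the genotypes overlapped.

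Circles of a host often differed at a single edge. Another exonic circle used the same upstream edge for 46.5% of the members and the same downstream edge for 29.7%. In exonic circles up to 500 bases those shares were 30.6% and 24.0%. In all, 1116 hosts had 1 member, 899 had at least 2 and 32 had at least 10. In the 899 hosts with several members, the leading circle held a median of 60% of the host's counts. Strbp had 18 members, and the 10 that began at the acceptor at position 37647285 of chromosome 2 held 94.1% of its counts. All 4 Sp1 members began at the same acceptor, at position 102407772 of chromosome 15. Vps13b, a gene for a lipid-transfer protein of the Golgi, and Nbas, a gene for a Golgi-to-ER transport factor, each had 21 members. Ubn2, which encodes a histone chaperone subunit, had 16.

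Positions within the gene were read only for the 4268 members that lay inside a RefSeq locus of the host. Of these, 1 had its upstream edge at the start of the locus and 0 had the downstream edge at its end. A back-splice needs an acceptor upstream and a donor downstream, so edges at the ends of a gene were unlikely from the outset. Measured from the start of the gene, the upstream edge lay at a median of 36.4% of the locus and the downstream edge at 65.5%. The upstream edge was in the first 25% of the locus for 32.5% of these circles and in the last 25% for 8.22%. Since a circle covered a median of 19.1% of the locus downstream of that edge, part of this contrast follows from geometry. Hosts were long genes, with a median locus of 74772 bases against 23794 bases over the mRNA genes tested. By the deposited GO annotation, 6.33% of hosts and 3.12% of tested genes carried the term centrosome, and 3.52% and 2.04% the term cilium. Ribosome was carried by 3 hosts, 0.153% against 1.13%, and extracellular region by 2.45% against 5.90%. These shares are descriptions and were not tested.

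Counts of circles followed the linear RNA of the host only loosely. Hosts had a median mRNA level of 12.0 FPKM, against 5.49 FPKM over all tested genes. Across the 1972 hosts present in the mRNA table, Spearman's rho between circle counts and FPKM was 0.15, and it was 0.06 in the 269 hosts with at least 50 counts; both are across genes, which share the libraries and are not independent replicates. How the authors counted a circle is not given, so counts are not set against each other per base. Gbe1, which encodes the glycogen branching enzyme, had the most circle counts for its linear RNA among the hosts with at least 50 counts. Its 6 members held 754 counts, while its mRNA level was 0.33, 0.08 and 0.35 FPKM in wild-type testis and 0.38, 0.30 and 1.04 FPKM in knock-in testis, from 203 mRNA counts in all. Its main circle of 1309 bases, on chromosome 16 from 70401734 to 70495399, was counted 98, 67 and 87 times against 94, 106 and 139, with overlap. As counts per 1000000 mRNA counts divided by FPKM, Gbe1 reached 16.0, where the median of the 269 hosts was 0.0596. Hyal4, a hyaluronidase family gene with 22 circle counts, reached 38.7 from a listed mean of 0.005 FPKM. In 6 hosts the circle counts exceeded the mRNA counts, among them Abca16, a lipid transporter family gene, with 45 against 31, and Hyal4, with 22 against 3. Ep400 mRNA, for comparison, was at 97.73, 83.32 and 88.97 FPKM in wild-type testis and 99.61, 107.12 and 97.66 FPKM in knock-in testis.

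**Figure D3:**
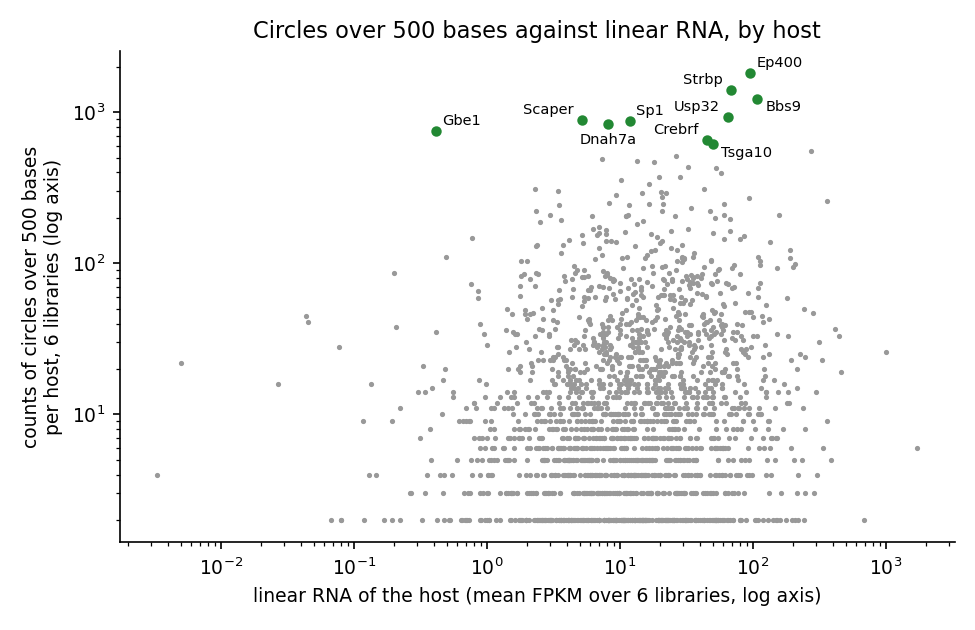
Counts of circles over 500 bases per host, summed over 6 libraries (y axis, log scale), against the mean FPKM of the host's mRNA (x axis, log scale), 1 point per host with FPKM above 0. The 10 hosts with the most counts are green and named. Gbe1 lies far to the left of the other 9, at 754 counts and 0.41 FPKM.

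Few members came from the sex chromosomes. The X chromosome is silenced in spermatocytes during meiosis. It held 29 members from 23 hosts, or 1.15% of the hosts, while 4.35% of the tested mRNA genes lie on it. X-linked members held 0.141% to 0.329% of the counts per library, and X-linked genes held 1.21% to 1.36% of the counts of tested mRNA genes. The most counted was a circle of 1010 bases from Gm45194, with 19 counts. The Y chromosome held 9 members, 6 of them from the deubiquitinase gene Usp9y, led by a circle of 515 bases with 4, 4 and 1 counts in wild-type testis and 1, 6 and 5 in knock-in testis. Usp9y has a close X-linked copy, Usp9x, which gave 3 members of its own, so counts of both are uncertain where their reads agree.

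The study compared the genotypes. In share of circle counts and relative to linear RNA, these circles differed between genotypes by less than the SD of the wild-type libraries. They made up 63.5%, 63.4% and 64.1% of circle counts in wild-type testis and 63.8%, 64.0% and 63.8% in knock-in testis. The means were 63.7% ± 0.34 and 63.9% ± 0.108 (SD, n = 3 each; exact permutation test, two-sided, p = 0.4). The 95% Wilson interval of a single library spanned 62.8% to 64.2% in the first wild-type library, and intervals of this kind cover counting error only. Relative to linear RNA, the class held 586, 492 and 530 counts per 1000000 mRNA counts in wild-type testis and 555, 554 and 599 in knock-in testis, with means of 536 ± 47.2 and 569 ± 25.9 (exact permutation p = 0.4). Their difference of 33.6 moved with single libraries: it was 11.6 without wild-type library 2, 18.6 without knock-in library 3 and 58.6 without wild-type library 1. With 3 libraries against 3 the smallest p of this test is 0.1.

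Against the shorter exonic circles, the class was lower in every knock-in library by a small margin. The ratio of counts over 500 bases to counts up to 500 bases was 3.12, 3.15 and 3.14 in wild-type testis and 3.10, 3.12 and 3.04 in knock-in testis, without overlap before rounding. On the log2 scale the means were 1.65 ± 0.00675 and 1.63 ± 0.0181, a difference of -0.02 (exact permutation p = 0.1, the smallest this design allows). The separation of the libraries was lost with the limit at 400 bases (exact permutation p = 0.5), with circles of at least 10 counts (p = 0.3) and without Ep400 (p = 0.2), and the difference was -0.01 without knock-in library 3. With the limit at 600 bases the separation was kept, and the difference was -0.055 (exact permutation p = 0.1). The count-weighted mean spliced length of the members was 1346, 1366 and 1373 bases in wild-type testis and 1343, 1344 and 1336 in knock-in testis. Every knock-in library was lower, with means of 1362 ± 14.0 and 1341 ± 4.65 bases (SD, n = 3 each; exact permutation p = 0.1). Circles over 4000 bases held 3.54% ± 0.137 of the counts in wild-type testis and 3.36% ± 0.0599 in knock-in testis. In the other 5 length ranges the libraries overlapped. The range over 4000 bases held 2168 counts, of which 804 came from the single Strbp circle of 6168 bases. Scaled levels of that circle were lower in every knock-in library. Neither the mean length nor the share over 4000 bases was recomputed without it, so a class-wide shift in length cannot be read from them. None of these differences passed a threshold of 0.05, which this design cannot reach.

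**Figure D4:**
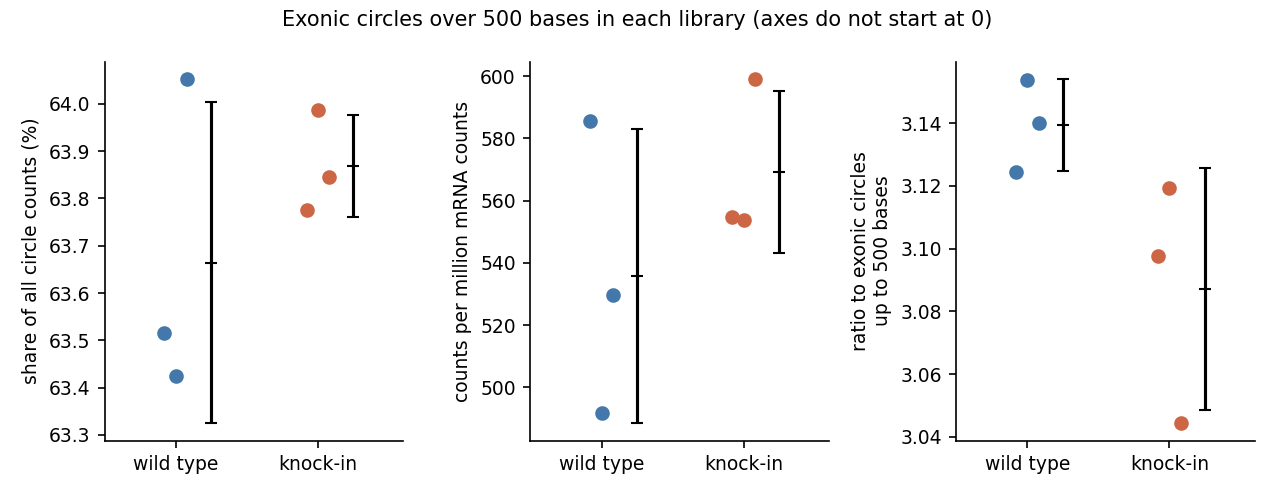
Share of all circle counts in percent (left), counts per 1000000 mRNA counts (middle) and ratio to the counts of exonic circles up to 500 bases (right) in the 3 wild-type (blue) and 3 knock-in (orange) libraries. Black bars are the mean and SD of each genotype, and the y axes do not start at 0. Libraries overlap in the left and middle panels; in the right panel the knock-in values of 3.04 to 3.12 lie below the wild-type values of 3.12 to 3.15.

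No single member was called changed. Of the 4314 members, 2435 were above 0 in at least 3 libraries and were tested, and they held 90.3% of the counts. With edgeR, 0 of these were called at an adjusted p under 0.05, and 0% of the 3887 circles of all kinds that were tested. The smallest adjusted p among members was 0.979, and over the alternatives it ran from 0.0574 without wild-type library 3 to 0.999 with a replicate block. At an unadjusted p under 0.05 there were 106 members, or 4.35%, beside a background of 4.91% of all tested circles. DESeq2 also called 0, with 41 at an unadjusted p under 0.05, or 1.68% beside a background of 1.8%. Libraries did not overlap, with the knock-in higher, in 134 members, or 5.50%, where the background was 5.69%. The knock-in was lower without overlap in 124 members, or 5.09%, where the background was 4.99%. The median log2 fold change was 0.05 in the members and 0.03 in all tested circles. Counts limited what could be seen. The spread between libraries, as edgeR's common coefficient of variation, came to 43.3% for circles and 11.1% for mRNA genes. Of the 70 members with at least 100 counts, log2 fold changes ran from -0.75 to 0.96, and in 57 of them the 95% interval lay within a 2-fold change in either direction. Of the 180 members with at least 50 counts, 81 had such an interval.

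**Figure D5:**
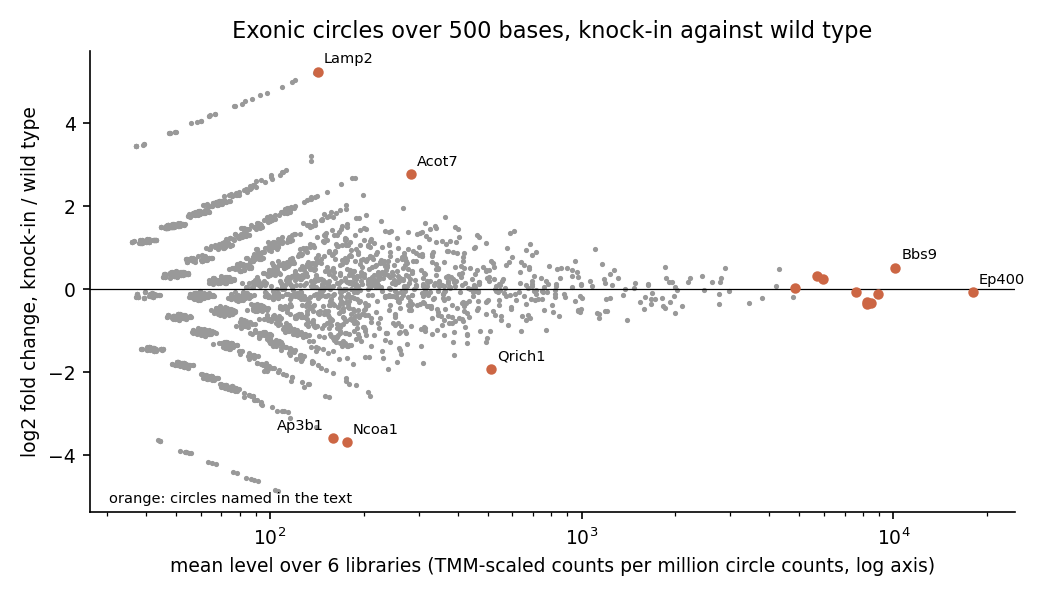
Log2 fold change of the knock-in over the wild type (y axis) against the mean CPM of circle counts over 6 libraries (x axis, log scale) for the 2435 members tested. Orange points are circles named in the text, of which 7 are labelled. The spread narrows from left to right, none of the points passed the test, and the bands at the left come from small whole counts.

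The smallest p-values among circles that were higher in knock-in testis belonged to Bbs9, Acot7 and Lamp2. The Bbs9 circle of 803 bases had scaled levels of 8312 ± 1030 and 11937 ± 426 CPM and a log2 fold change of 0.52 ± 0.16 (unadjusted p = 0.000845, adjusted p = 0.979). Over the alternatives its adjusted p ran from 0.072 with the stricter filter filterByExpr to 0.999 with a replicate block. In the authors' deposited table its adjusted p was 0.268, and it was the only circle of 7391 with a value below 1. The linear Bbs9 mRNA had a log2 fold change of 0.04 ± 0.05 (adjusted p = 0.824). A circle of 569 bases from Acot7, an acyl-CoA thioesterase gene, was counted 0, 0 and 3 times in wild-type testis and 9, 11 and 5 times in knock-in testis. A circle of 824 bases from Lamp2, an X-linked gene for a lysosomal membrane protein, was counted 0, 0 and 0 times against 10, 2 and 2. Most of its knock-in counts came from the first library. With no wild-type count, this circle passed the filter of at least 3 libraries only through knock-in testis. A second Lamp2 member, of 1053 bases, was counted 6, 5 and 0 times against 1, 2 and 2.

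Among circles lower in knock-in testis, the smallest p-values belonged to Qrich1, Ncoa1 and Ap3b1, and none passed (adjusted p = 0.979 for each). A circle of 1810 bases from Qrich1, a transcriptional regulator gene, was counted 7, 18 and 12 times in wild-type testis and 1, 5 and 5 times in knock-in testis, with a log2 fold change of -1.92 ± 0.57. A circle of 698 bases from Ncoa1, a nuclear receptor coactivator gene, was counted 8, 8 and 0 times against 0, 1 and 0, with overlap at 0. A circle of 1045 bases from Ap3b1, an adaptor complex gene, was counted 11, 2 and 2 times against 0, 0 and 1, and 1 wild-type library held most of these counts.

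Summing the members of each host did not bring a call. Of 1331 host sums tested, edgeR called 0, and 0% of all 2455 sums of class and other circles that were tested. At an unadjusted p under 0.05 there were 61 with edgeR, or 4.58% beside a background of 4.73%, and 36 with DESeq2, or 2.70% beside 2.65%, which also called 0. The knock-in was higher without overlap in 74 sums, or 5.56% beside a background of 5.38%, and lower in 64, or 4.81% beside 4.85%. The smallest adjusted p, 0.123, belonged to Deup1, which encodes a protein of the deuterosome, where centrioles multiply in multiciliated cells. Over the alternatives that could test this sum, its adjusted p ran from 0.12 to 0.986, the latter without knock-in library 3, and it was 0.781 with DESeq2. Its 3 members, which share the acceptor at position 15612156 of chromosome 9, summed to 10, 9 and 2 counts in wild-type testis and 0, 0 and 0 in knock-in testis. Linear Deup1 mRNA was at 39.59, 38.66 and 41.31 FPKM in wild-type testis and 44.12, 44.69 and 43.70 FPKM in knock-in testis. With all its counts in wild-type testis, the circle sum passed the filter of at least 3 libraries only through that genotype. Its separation was therefore fixed in part by the filter. The members of 1009 and 903 bases were counted 6, 0 and 0 and 0, 5 and 0 times in wild-type testis. A Deup1 circle of 309 bases, below the length limit, was counted 0, 2 and 0 times in knock-in testis only. The mRNA was higher in every knock-in library, and its difference was not called (log2 fold change 0.16 ± 0.06, adjusted p = 0.279).

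Other host sums with small p-values went in both directions. Rgs22, a testis regulator of G-protein signalling, summed to 22, 13 and 9 counts in wild-type testis and 35, 31 and 36 in knock-in testis (log2 fold change 1.05 ± 0.32, adjusted p = 0.946). Dis3l2, an exoribonuclease gene, summed to 8, 5 and 6 counts against 21, 18 and 21 (1.47 ± 0.45, adjusted p = 0.946). In both, the libraries did not overlap. Acot7 summed to 2, 1 and 4 counts against 14, 11 and 5. Cfap43, a gene of the sperm flagellum, summed to 22, 11 and 27 counts against 5, 16 and 9, with overlap. Qrich1 summed to 23, 28 and 20 counts against 13, 17 and 9, with every knock-in library lower (-1.02 ± 0.36, adjusted p = 0.961). The linear mRNA of these 5 hosts had log2 fold changes of -0.05 to 0.20, and none was called.

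Circles that share an edge can be compared within a library, free of scaling. Bbs9 circles of 803 and 650 bases begin at the same acceptor, at position 22643745 of chromosome 9. The 650-base circle was counted 34, 30 and 18 times in wild-type testis and 18, 19 and 17 times in knock-in testis. The ratio of the longer to the shorter was 4.88, 3.90 and 5.94 in wild-type testis and 10.4, 9.89 and 14.7 in knock-in testis. Every knock-in ratio was above every wild-type ratio, by 1.25 on the log2 scale (exact permutation p = 0.1, the smallest possible). A Bbs9 circle of 477 bases, below the length limit, uses that acceptor too and was counted 113, 95 and 75 times against 136, 116 and 152. Strbp circles of 6168 and 557 bases also share an acceptor. The 557-base circle was counted 5, 2 and 8 times in wild-type testis and 12, 17 and 15 times in knock-in testis, and the ratio of the longer to the shorter was 30.0, 62.5 and 18.4 against 8.92, 8 and 9.27. The ratio of the Strbp circles of 6168 and 1708 bases overlapped, with means of 2.26 ± 0.303 and 2.12 ± 0.472 (exact permutation p = 0.8). These pairs were chosen after their values were seen. Over all 17 pairs of members that share an edge and have at least 50 counts each, 3 ratios did not overlap, or 17.6%, with 1 higher (5.88%) and 2 lower (11.8%), and each had an adjusted p of 0.567 over the 17. Both lower ratios involve the Strbp 557-base circle.

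The linear RNA of the hosts was seldom called. Of 15787 mRNA genes tested, 155 were called, or 0.982%, with 0.88% higher and 0.101% lower. Of the 1959 hosts among them, 12 were called, or 0.613%, 6 higher and 6 lower. Higher were Cfap69, Gps2, Samd4b, Stip1, Mbd2 and Fhad1, and lower were Arih1, Angel1, Pfkm, Tcp1, 1300017J02Rik and Slc2a3. Cfap69, a gene of the sperm flagellum, had the most circle counts of these. Its mRNA rose from 52.7 ± 0.374 to 63.2 ± 1.09 FPKM (log2 fold change 0.35 ± 0.06, adjusted p = 0.0386), while its 5 members summed to 11, 10 and 8 counts in wild-type testis and 8, 2 and 7 in knock-in testis. The circle sum had a log2 fold change of -0.94 ± 0.58 that did not pass (adjusted p = 0.981). The call of the Cfap69 mRNA was kept in 1 of the 6 fits that left out a library and lost in 5, with an adjusted p of up to 0.18. Each of the other 11 calls was also lost without at least 2 of the libraries. DESeq2 called each of the 12 except 1300017J02Rik, for which it gave no adjusted p. A replicate block kept all but Cfap69 (adjusted p = 0.0546). Slc2a3, a glucose transporter gene, and Pfkm, a phosphofructokinase gene, had 2 and 8 circle counts in all, too few to set beside their mRNA.

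Genes whose products act on circles were read in the mRNA table, where edgeR called 0.982% of all genes tested. Of 29 tested genes whose products regulate back-splicing, edgeR called 1, Hnrnpm, an hnRNP gene that rose from 19.8 ± 1.44 to 25.1 ± 0.246 FPKM (log2 fold change 0.33 ± 0.06, adjusted p = 0.0442). That call was lost in each of the 6 fits that left out a library and with a replicate block (adjusted p = 0.0543). It was kept with DESeq2 (adjusted p = 0.00619). In this list 3 of 29 had an unadjusted p under 0.05 with edgeR, where the share over all mRNA genes was 12.9%. The median log2 fold change of this list was 0.05, against 0.00 over all mRNA genes. Of 21 tested genes for circle export and decay, 0 were called by edgeR and 2 had an unadjusted p under 0.05, beside 12.9% of all mRNA genes, with a median of 0.04. Of 25 hosts of often described circles, 16 gave members, 49 circles with 1241 counts in all. Ankib1 led them with 488 counts, followed by Tulp4 with 269 and Rims2, a presynaptic scaffold gene, with 206. Of the 24 tested as mRNA, 0 were called by edgeR and 2 had an unadjusted p under 0.05. Of 10 long-exon genes of DNA repair and the centrosome, 3 gave members and 1 was called as mRNA, Mdc1, a DNA damage mediator gene with no member, at 0.41 ± 0.07 (adjusted p = 0.026). That call was lost in 4 of 6 fits without a library, and kept with DESeq2 (adjusted p = 0.000269) and with a replicate block (adjusted p = 0.0433). Among the cell type markers, the pachytene gene Sycp1 gave 3 members with 359 counts and the macrophage gene Adgre1 gave 1 with 10 counts, and the marker lists of spermatogonia, spermatids, Sertoli, Leydig and peritubular cells gave none.

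Circles at the length limit are given as values only. The members nearest above 500 bases with at least 20 counts came from Catsperg2 and Catsperg1, paralogous sperm calcium channel genes, and Tbcel, each 501 bases with 42, 40 and 23 counts, and from Cfap69 and Cep192, of 504 and 505 bases with 23 and 123 counts. Just outside were Gas2 with 499 bases and 80 counts, Map3k3 with 498 and 24, Scamp1 with 497 and 70, Nup98 with 497 and 29, and Zpbp, a sperm acrosome gene, with 495 and 22.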

How the data were processed

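RNA of 6 whole-testis libraries, 3 per genotype, was analysed, and samples were grouped by their titles. The authors deposited whole-number counts per circle and per mRNA gene, and FPKM per mRNA gene. Each deposited p-value and adjusted p-value is the authors' own. The circle table also gives a spliced length and an annotation class, deposited by the authors in bases and words. Per the submitters' processing notes, reads were placed on mm10. Nothing in the sources used here names the circle caller, the counter, the annotation or the authors' test. Deposited coordinates were taken as 1-based, since the length of single-exon circles equals end minus start plus 1. Promoter windows came from RefSeq (GRCm38.p6).

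Counts were tested with edgeR 4.0.16 (R 4.3.3; quasi-likelihood, TMM, two-sided, Benjamini-Hochberg over the whole table, called under 0.05). Circles and host sums needed counts in at least 3 of 6 libraries, and mRNA genes had to pass filterByExpr (minimum count 10, total 15). Host sums kept members and other circles apart. Each standard error was derived from the F statistic and follows a ± beside a fold change. Class values were compared by exact permutation tests. Alternatives were DESeq2 1.42.0, other scaling, other filters, limits of 400 and 600 bases, a replicate block and leaving out each library.

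The text names the 10 circles and hosts with the most counts, the 3 smallest p-values in each direction, the 5 longest circles with at least 20 counts, the 5 hosts with the most members, and the 5 circles on each side of the limit. Other circles were chosen after their values were seen. The members and lists were chosen with earlier results of these data known.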

Additional observations from a re-analysis of the deposited data

How the results depend on the processing

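Neither a member nor a host sum of members was called under any of the alternative scalings, filters, tools or omissions. Over all circles, leaving out a library gave 0 to 1 calls. The single call came without knock-in library 2, for an antisense circle of Ppp2r3d that is no member (adjusted p = 0.00618). The mRNA count moved most: edgeR called 155 genes, DESeq2 460, and leaving out a library gave 11 to 125, with 74, 32 and 20 without wild-type library 1, 2 and 3 and 11 without knock-in library 3. Placing the limit at 600 bases turned the knock-in minus wild-type difference in the class share from 0.205 to -0.319 percentage points (exact permutation p = 0.5). Small log2 fold changes also turned sign when a library was left out. The Ep400 circle ran from -0.11 to 0.14, turning without wild-type library 1 and without knock-in library 3, and the Ep400 sum from -0.17 to 0.074, turning without wild-type library 1. The Usp32 circle ran from -0.11 to 0.051, turning without wild-type library 2 and without knock-in library 1. The Scaper circle ran from -0.14 to 0.11, turning without wild-type library 1, knock-in library 1 and knock-in library 2, and was 0.00897 with mRNA library sizes. The Ankib1 circle ran from -0.095 to 0.21, turning without knock-in library 3. The cause was not tested. Left-out libraries gave class differences of 0.0847 to 0.399 percentage points in share, 11.6 to 58.6 counts per 1000000 mRNA counts and -0.03 to -0.01 in the log2 ratio to shorter circles. Another 346 single values kept their direction and side of the threshold. Another 72 summary values kept their direction or, as counts of calls, stayed of similar size, with 108 to 178 mRNA genes taken as similar to 155.

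Same-numbered libraries were not treated as pairs in the main fits. The correlation of their deviations was -0.01, 0.01 and 0.01 over circles, where other pairings ran from -0.02 to 0.01. Over mRNA genes it was 0.14, 0.11 and 0.01, where other pairings ran from -0.15 to 0.04. The values 0.14 and 0.11 were the highest of any pairing, so these correlations do not settle whether mRNA values share a replicate structure. With the replicate number as a block, 0 circles, 0 members and 0 host sums were called, and 178 mRNA genes. Counts are low, with a median of 6 per member, and each genotype has 3 libraries.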
